A study of Zea mays with 5 samples.

Results

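Cytosines in CAG and CTG are the symmetric members of the CHG class, in which H is any base but G. They were taken from the deposited methylation map of 1 stretch of maize chromosome 9 by their context, by the base after the C (A or T) and by a coverage of at least 5 reads. This gave 3655 cytosines, 1790 in CAG and 1865 in CTG, of the 43778 cytosines listed and of the 26750 with at least 5 reads. A further 1945 CAG and CTG cytosines were listed with under 5 reads and entered only where stated. The material was young leaves of Derivative 3-3, the maize genotype whose de novo centromere the series title names. Chromatin cut with micrococcal nuclease was precipitated with a rabbit antiserum raised against peptides of maize CENH3, the histone H3 variant of active centromeres, and the DNA was then treated with sodium bisulfite. Plants were grown in a greenhouse or in the field. The map comes from 1 library, without a replicate, without a control genotype and without unprecipitated DNA, and the 4 RNA-seq libraries of the series were not analysed here.

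CHG methylation in plants is kept by chromomethylases, DNA methyltransferases that bind the silencing mark H3K9me2, while the histone methyltransferases that set this mark bind methylated DNA. A CAG on one strand faces a CTG on the other, with the cytosines 2 bp apart, so each such site can carry the methyl group on both strands and form a dyad. Replication leaves the methyl group on the old strand only, and the new strand is methylated afterwards. In maize, dense CHG methylation is typical of transposon-rich chromatin. After bisulfite treatment an unmethylated C is read as T, so the level of a cytosine is the share of its reads that kept the C. A read comes from one original strand, so the cytosines of a dyad are covered by different reads, whereas neighbours on the same strand often share reads.

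The 3655 cytosines carried 31991 base calls between positions 4301438 and 4587776, with a median of 8 reads and a maximum of 36. Together they were methylated at 75.7% (Wilson 95% interval 75.3 to 76.2, 24232 methylated of 31991 reads). Intervals of this kind cover counting error only, because the reads carry no molecular identifiers, PCR copies cannot be told from molecules and neighbouring cytosines share reads. Cytosines with exactly 5 reads, just inside the coverage minimum, stood at 73.0% (71.5 to 74.4, 729 cytosines), and those with exactly 4 reads, just outside it, at 70.2% (68.7 to 71.6, 964 cytosines). Cytosines with 5 to 9, 10 to 19 and 20 or more reads stood at 76.0%, 75.3% and 76.8%.

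CAG and CTG levels lay within 1 percentage point of each other. CAG stood at 76.2% (75.6 to 76.9) and CTG at 75.3% (74.6 to 75.9), a difference of 0.955 percentage points (95% interval on reads 0.016 to 1.89). Without the 1% deepest cytosines it was 0.332 (-0.63 to 1.29). In 22 windows (10 kb each) that held 10 or more of both, CAG exceeded CTG by 0.31 ± 2.88 percentage points (SD over windows) and was higher in 12 of 22. By strand, CAG was at 77.0% on the forward and 75.5% on the reverse strand, while CTG was at 77.5% on the forward and 73.2% on the reverse strand. Within the 832 dyads in which each strand reached 5 reads, CAG exceeded CTG by 0.47 ± 23.6 percentage points (SD over dyads), with CAG higher in 311, CTG higher in 303 and both equal in 218. Forward and reverse cytosines of these dyads had mean levels of 76.9% and 77.5%. Over the whole map the means of cytosine levels, not weighted by reads, were 76.6% forward and 74.9% reverse. The lower mean of the reverse strand was thus not seen within these dyads. The level of reverse CTG alone within dyads was not computed.

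Single cytosines were often methylated on only part of the reads. Among the 1168 with at least 10 reads, 697 (59.7%, Wilson interval 56.8 to 62.5) were at 80% or more, 383 (32.8%, 30.2 to 35.5) lay between 20% and 80%, and 88 (7.53%, 6.16 to 9.19) were at 20% or less. The class between those limits held 10.4% of 1796 CG cytosines and 72.2% of 474 CCG cytosines at the same coverage. CCG is the CHG form whose opposite cytosine lies in a CG. Complete methylation of all reads was seen at 294 CAG and CTG cytosines (25.2%, 22.8 to 27.7), and no methylated read at 72 (6.16%, 4.92 to 7.69). The distribution therefore had a main peak near full methylation with a long shoulder from 40% to 80%, and a small separate peak at 0% to 10%.

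**Figure D1:**
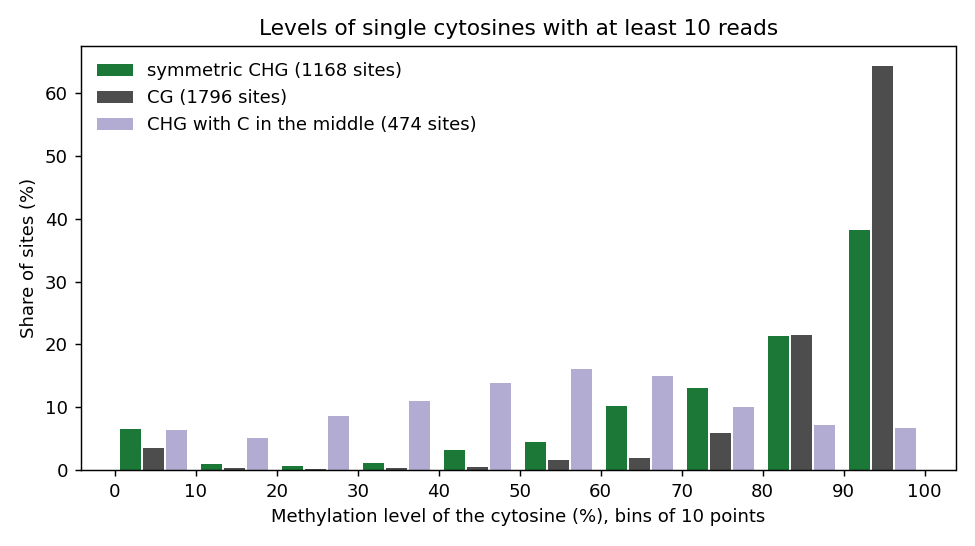
Share of cytosines (y axis, %) by methylation level in bins of 10 percentage points (x axis), for cytosines with at least 10 reads. CAG and CTG cytosines (symmetric CHG, green) put 38.3% of sites in the top bin against 64.3% for CG (grey), and CCG cytosines (violet) spread over the middle bins.

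Part of this spread was counting error. At 10 or more reads, levels had an SD of 26.6 percentage points, counting error of the reads accounted for 13.8% of the variance, and an SD of 24.7 points was left. Where the nearest CG cytosine was at 80% or more, the SD was 18.0 points, counting error took 31.2% of the variance and 14.9 points were left. At this depth few single cytosines could be placed in the middle class beyond counting error. The exact Clopper-Pearson 95% interval lay wholly between 20% and 80% for 28 of the 383 intermediate cytosines. It lay wholly above 20% for 325 of them and wholly below 80% for 76.

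Intermediate cytosines resembled highly methylated ones in the features that could be read from the map. Among cytosines with at least 10 reads whose nearest CG was at 80% or more, 316 were intermediate and 638 were at 80% or more. CAG made up 50.6% of the former and 48.3% of the latter. Median coverage was 12.5 and 12 reads, the median distance to the nearest CG was 9 and 8 bp, and the mean level of that CG was 94.3% and 95.5%. CHH cytosines within 50 bp were methylated at 1.82% (1.72 to 1.92) around intermediate and 1.80% (1.73 to 1.87) around highly methylated cytosines. The forward strand held 43.4% of the intermediate and 51.1% of the highly methylated cytosines. Over all cytosines with at least 10 reads, CHH within 50 bp stood at 0.731% (0.619 to 0.863) around the 88 cytosines at 20% or less, against 1.90% (1.80 to 1.99) around intermediate and 1.84% (1.78 to 1.92) around highly methylated ones. The 50 bp flanks of nearby cytosines overlap, so the same CHH reads were counted repeatedly and can fall in several classes. These CHH intervals are therefore too narrow.

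CAG and CTG levels differed with the level of the nearest CG, and mainly the cytosines beside a low CG stood apart. The nearest CG with at least 5 reads lay a median of 8 bp away, and within 50 bp for 3465 of 3655 cytosines. Where that CG was at 20% or less, 249 CAG and CTG cytosines stood at 9.36% (8.19 to 10.7), and 213 of them were themselves at 20% or less. Where it was at 80% or more, 2931 cytosines stood at 82.0% (81.5 to 82.4), and 66 of them (2.25%) were at 20% or less. For 475 cytosines with the CG in between, the level was 70.3% (68.9 to 71.7). Of all 1197 intermediate CAG and CTG cytosines, 948 (79.2%) lay beside a CG at 80% or more.

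**Figure D2:**
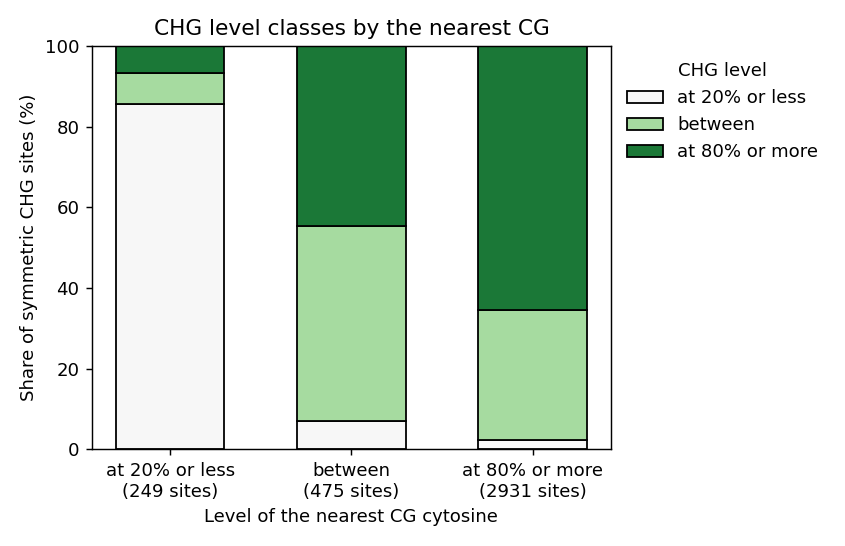
Stacked shares (y axis, %) of CAG and CTG cytosines at 20% or less (white), between (light green) and at 80% or more (dark green), for each class of the nearest CG level (x axis, number of cytosines in brackets). Low cytosines make up 85.5% of those beside a low CG and 2.25% of those beside a high CG, while intermediate ones make up 32.3% beside a high CG.

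Among cytosines beside a high CG, the correlation with the level of that CG was low. Across all 3655 cytosines Pearson r was 0.605 and Spearman rho 0.323, and across the 2931 beside a CG at 80% or more they were 0.05 and 0.09. The CGs of the latter had a mean level of 96.6%, and 76.2% of them were at 100%, so their level left little range for a correlation. Cytosine and CG on the same strand can share reads, so the nearest CG on the opposite strand was also used. It gave r = 0.512 over all cytosines and r = -0.03 over the 2808 whose opposite-strand CG was at 80% or more. The opposite-strand CG lay farther away, at a median of 31 bp against 8 bp, and within 50 bp for 2158 of 3655 cytosines. Shared reads and distance thus cannot be told apart here. These correlations are across cytosines of 1 library and describe the map. Beside a CG at 80% or more, the level was 81.6% at a distance of 1 to 3 bp (80.5 to 82.7, 531 cytosines), 84.1% at 4 to 6 bp (83.1 to 85.0, 677) and 83.4% at 7 to 10 bp (82.3 to 84.4, 559). It was 81.4% at 11 to 20 bp, 80.1% at 21 to 50 bp and 76.5% beyond 50 bp (74.1 to 78.8, 135 cytosines), so the class farthest from a CG with at least 5 reads was the lowest. CGs listed with 3 or 4 reads can lie closer.

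Each CHG cytosine was also tested against its nearest CG by Fisher's exact test, with p-values adjusted by Benjamini-Hochberg over all 5107 CHG cytosines. Of these, 140 (2.74%) were below and 6 (0.117%) above the CG at an adjusted p of 0.05. Among the 3655 CAG and CTG cytosines, 43 (1.18%) were below and 5 (0.137%) above. The CCG cytosines accounted for the remaining 97 lower calls (6.68% of 1452). The 43 lower cytosines had levels from 0% to 60% with a median of 11.1%, 30 of them at 20% or less, beside CGs with a median of 100%. They had a median of 9 reads. At such depth only wide differences can pass, so these levels partly follow from the test.

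Low cytosines beside a high CG occurred on both strands. Of the 43 lower calls 19 were on the forward strand, and of the 11 cytosines with at least 10 reads at 20% or less beside a CG at 80% or more, 45.5% were. The 3 deepest were all on the reverse strand. The CTG cytosine at 4440670 had 0 of 14 reads methylated (0 to 21.5%), 15 bp from a CG with 19 of 19. The CTG cytosine at 4381614 had 0 of 13 (0 to 22.8%), 30 bp from a CG with 10 of 10, and its dyad partner had 0 of 3. The CTG cytosine at 4493317 had 2 of 14 (4.01 to 39.9%), 30 bp from a CG with 9 of 9, while its partner had 4 of 5. For all 3 the nearest CG lay within 30 bp and was methylated in all of its reads. Their own low levels follow from how they were picked.

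The reverse pattern was seen at 17 of the 249 cytosines beside a CG at 20% or less, which were at 80% or more themselves (6.83%, against the 2.25% of cytosines beside a high CG that were low). These counts set no limit on the distance to the CG. With the CG within 50 bp, the pattern was seen at 12 of 237 (5.06%, against 2.18%). The CAG cytosine at 4572774 had 13 of 15 reads methylated, 16 bp from a CG at 4572790 with 0 of 11 (exact Fisher test, adjusted p = 0.0039). The same CG was the neighbour of a reverse-strand cytosine at 4572800 with 10 of 10 (exact Fisher test, adjusted p = 0.00103). A CG at 4528388 with 0 of 7 was likewise shared by calls at 4528378, with 5 of 5, and at 4525349, 3039 bp away, with 5 of 5 (adjusted p = 0.0489 for both by the exact test). The fifth was at 4313183, with 8 of 8 reads against 0 of 6 at a CG 11 bp away (exact Fisher test, adjusted p = 0.0215). These 5 were named because they passed the test. The other deep cytosines of this kind, at 4577959 (10 of 12) and 4385256 (11 of 11), did not pass it. The 5 calls thus rested on 3 CG cytosines.

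Along the region, CAG and CTG methylation was high in most 10 kb windows and broken by a few low ones. Of 29 windows, 20 held at least 50 of these cytosines. Their levels had a median of 80.4% and an SD of 11.4 percentage points, with 14 windows at 70% or more, 4 between 60% and 70%, and 2 below 60%. The highest were 85.4% at 4351438 to 4361437 (83.1 to 87.4, 110 cytosines), 84.3% at 4481438 to 4491437 (82.1 to 86.2, 111 cytosines) and 83.3% at 4361438 to 4371437 (82.0 to 84.5, 415 cytosines). The lowest were 38.1% at 4491438 to 4501437 (34.9 to 41.5, 91 cytosines), 59.0% at 4431438 to 4441437 (55.9 to 62.1, 108 cytosines) and 66.0% at 4531438 to 4541437 (63.4 to 68.6, 150 cytosines). The lowest window and one of the 3 highest were direct neighbours, meeting at 4491438.

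When only cytosines beside a CG at 80% or more were counted, the low windows rose. The window from 4491438 then stood at 76.0% (49 cytosines), that from 4431438 at 77.6% (79) and that from 4531438 at 81.4% (97). Over the 23 windows with at least 10 such cytosines, levels ran from 71.5% to 88.7% with a median of 82.5% and an SD of 4.28 percentage points. The lowest of them was the window from 4561438 to 4571437, at 71.5% (138 cytosines), where CG as a whole stood at 88.3% and 56.8% of all 192 CAG and CTG cytosines were intermediate. That share was the highest of the 20 windows with at least 50 cytosines. The window was singled out after its values were seen.

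**Figure D3:**
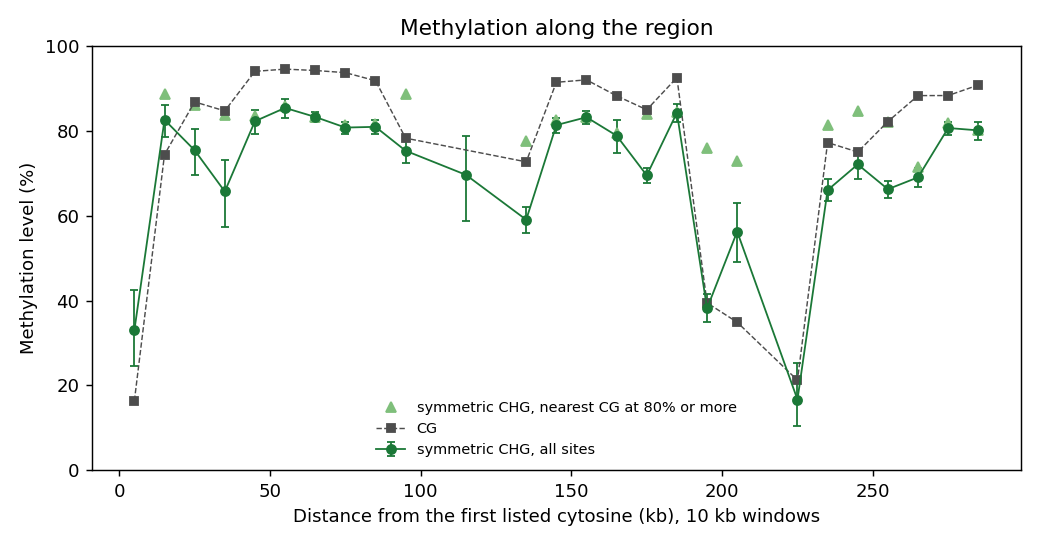
Methylation level (y axis, %) in 10 kb windows by distance from the first listed cytosine (x axis, kb), for windows with at least 10 cytosines of the kind plotted. Green circles are all CAG and CTG cytosines with Wilson 95% intervals, pale triangles those beside a CG at 80% or more (71.5% to 88.7%), and grey squares CG. Both contexts dip near the left end and between 195 and 225 kb.

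At 1 kb the same picture was sharper. Of 164 bins with at least 5 CG and 5 CAG or CTG cytosines, 8 had CG at 5% or less, and in these 2 of 797 CAG and CTG reads were methylated (0.251%, 0.0688 to 0.91). In 5 bins with CG above 5% and below 50%, the level was 16.9% (15.0 to 19.0), and in 9 bins with CG from 50% to below 80% it was 68.9% (65.8 to 71.8). In the 142 bins with CG at 80% or more it was 81.1% (80.7 to 81.6), from 45.5% to 97.8% between bins. The bin from 4553438 had 2 of 180 CAG and CTG reads methylated with CG at 11.8%, and the bin next to it, from 4554438, had 80 of 176 (45.5%, 38.3 to 52.8) with CG at 85.0%. The bin from 4568438 had 41 of 84 (48.8%, 38.4 to 59.3) with CG at 87.5%, and that from 4482438 had 91 of 93 (97.8%) with CG at 94.7%. Some bins with low CAG and CTG levels had a CG level, taken over the whole bin, that was not near 0. The bin from 4475438 had 36 of 534 reads methylated (6.74%) with CG at 37.6%, and that from 4552438 had 25 of 174 (14.4%) with CG at 33.0%. Such a level averages over the CGs of the bin. In the bin from 4475438 most low dyads had a nearest CG at 0%, such as that at 4475564 (0 of 13 and 0 of 21 reads). The dyad at 4476126 (0 of 6 and 0 of 5) had one at 100%. Bins with CG at 80% or more differed by up to 52.4 percentage points in CAG and CTG level.

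Intermediate cytosines stood both singly and in runs. Among cytosines with at least 10 reads in order of position, the 383 formed 215 runs, of which 132 held a single cytosine and 21 held 4 or more. The remaining 251 cytosines (65.5%) lay in runs of 2 or more. With 32.8% of the cytosines intermediate, runs also arise in random order, and clustering beyond that was not tested. The longest run held 9 cytosines on both strands between 4565632 and 4567744, a span of 2113 bp. They stood at 50% to 73.3% each and 61.8% together (52.1 to 70.6), with CG in the same stretch at 82.4%. Cytosines with under 10 reads were passed over, and not all of those within this span were intermediate. The dyad at 4567656 had 9 of 9 and 6 of 6 reads methylated, and that at 4566182 had 4 of 8 and 3 of 5. A run of 7 cytosines within 48 bp, from 4538015 to 4538062, stood at 49.4% (39.2 to 59.7) with CG at 41.5%. A run of 7 reverse-strand cytosines from 4381162 to 4381524 stood at 73.0% (64.0 to 80.4) with CG at 84.5%. The longest run lay in the window from 4561438 described above.

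Levels of cytosines close to each other were correlated, and the correlation faded with distance, to near 0 beyond a kilobase. Over pairs on opposite strands that do not form a dyad, r was 0.677 at 3 to 10 bp (478 pairs), 0.520 at 11 to 30 bp (1351), 0.500 at 31 to 100 bp (3968) and 0.362 at 101 to 300 bp (9126). It was 0.211 at 301 to 1000 bp and 0.01 at 1001 to 3000 bp. Same-strand pairs, which can share reads, gave 0.679, 0.628, 0.547, 0.422, 0.190 and 0.00 at these distances. Each cytosine enters many pairs, so these values describe the map and carry no test. Up to 300 bp the same-strand values were equal to or above the opposite-strand ones. Spearman rho of opposite-strand pairs was lower than r, at 0.372, 0.197, 0.235 and 0.149 in the classes up to 300 bp. Levels lay within 20 percentage points of each other for 66.5% of opposite-strand pairs at 3 to 10 bp and 53.2% at 1001 to 3000 bp.

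The correlation of levels was far lower among cytosines beside a highly methylated CG. When both cytosines had a nearest CG at 80% or more, opposite-strand pairs gave r of 0.05 at 3 to 10 bp (369 pairs), 0.07 at 11 to 30 bp (1056), 0.01 at 31 to 100 bp (2924) and 0.02 at 101 to 300 bp (6482). Same-strand pairs gave 0.16, 0.18, 0.08 and 0.03. For dyads r was 0.631 over all 832 and 0.362 over the 674 under the same restriction. Spearman rho of these dyads was 0.434 and 0.314. The restriction also narrows the range of levels, and its part in these lower values was not tested.

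**Figure D4:**
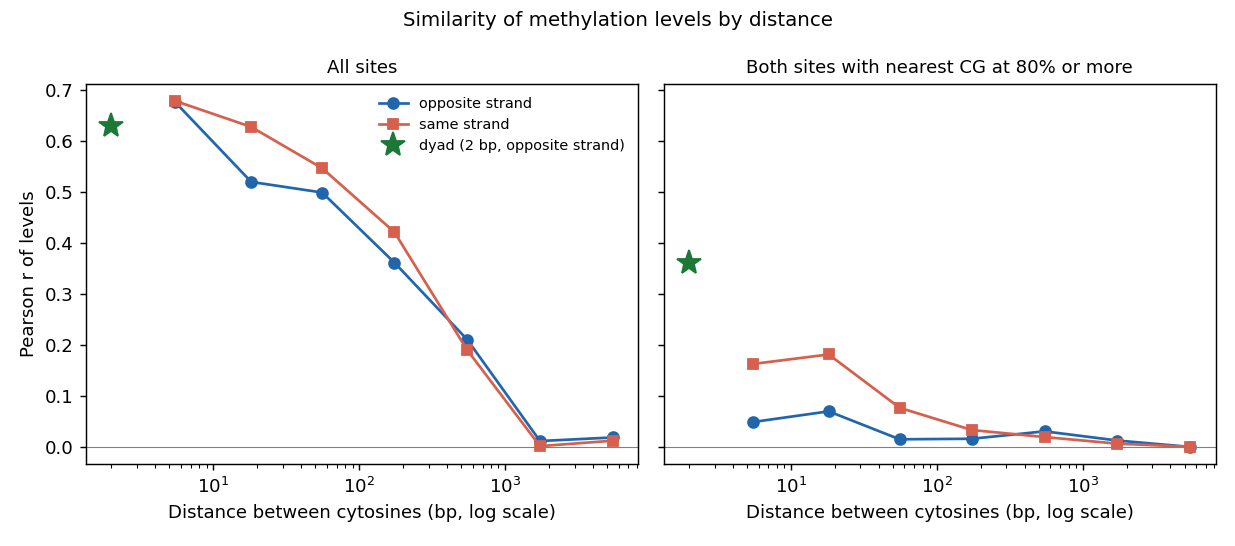
Pearson r of methylation levels (y axis) by distance between cytosines in bp (x axis, log scale, points at the geometric middle of each class) for opposite-strand pairs (blue), same-strand pairs (red) and dyads (green star), over all cytosines (left) and where both have a nearest CG at 80% or more (right). On the left the dyad (0.631) lies among its close neighbours, and on the right it stands at 0.362 against 0.05 and 0.07 for opposite-strand neighbours within 30 bp.

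Dyads were compared directly with neighbouring cytosines outside the dyad. Each dyad cytosine was set beside its partner and beside the nearest other CAG or CTG cytosine on the partner's strand, 3 to 100 bp away. For 1211 dyad cytosines for which all 3 had a nearest CG at 80% or more, r was 0.377 with the partner and 0.10 with the neighbour. After correction for counting error these were 0.584 and 0.152. The level differed from that of the partner by a mean of 16.3 percentage points and from that of the neighbour by 19.7. The partner was closer in level for 493 cytosines, the neighbour for 353, and both were equally close for 365. Partner and neighbour had the same median coverage of 8 reads, and the median distance of the neighbour was 12 bp. Of the 16 windows of 10 kb with at least 20 such cytosines, the partner was closer on average in 15, by 3.13 ± 2.08 percentage points (SD over windows). Partners lay 2 bp away, so partner and neighbour also differed in distance, and its part was not tested. Opposite-strand pairs 1 to 2 bp apart that form no dyad gave r = 0.687 over all cytosines (84 pairs). With both beside a CG at 80% or more they gave r = -0.07 (60 pairs).

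Without the restriction on the CG level, the same comparison of 1614 dyad cytosines gave r = 0.637 with the partner and 0.510 with the neighbour. Levels lay within 20 percentage points of the partner for 68.6% (66.3 to 70.9) and of the neighbour for 59.4% (56.9 to 61.7). The partner was closer on average in 18 of 18 windows. Leaving out each of 22 windows in turn kept r with the partner between 0.355 and 0.396 and r with the neighbour between 0.08 and 0.12 where the CG was at 80% or more. Both cytosines of a dyad served as starting points, so each dyad can count more than once. The cytosines come from 1 library, so no test of this difference was made.

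The level of the reverse partner rose with that of the forward cytosine. Where the CG was at 80% or more and the forward cytosine was below 40%, the reverse partner stood at 65.6% (59.7 to 71.1, 35 dyads), while reverse neighbours 3 to 30 bp away stood at 78.0% (73.3 to 82.2, 46 pairs). With the forward cytosine from 40% to below 60%, the values were 72.8% (68.1 to 77.1) and 81.2% (78.5 to 83.7). From 60% to below 80% they were 74.3% (72.0 to 76.5, 155 dyads) and 85.2% (83.7 to 86.5, 257 pairs). From 80% to below 100% they were 83.9% (81.9 to 85.7, 156 dyads) and 82.6% (81.3 to 83.9, 332 pairs). With a fully methylated forward cytosine the partner stood at 88.2% (86.8 to 89.4, 284 dyads) and the neighbours at 84.4% (83.4 to 85.3, 704 pairs). Partner levels were thus higher in each class than in the one before, by 22.5 percentage points from the lowest to the highest. Neighbour levels rose by 6.31 points from the class below 40% to the fully methylated class and were highest in the class from 60% to below 80%. A reverse neighbour can enter several pairs, so its reads can count more than once and the neighbour intervals are too narrow.

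**Figure D5:**
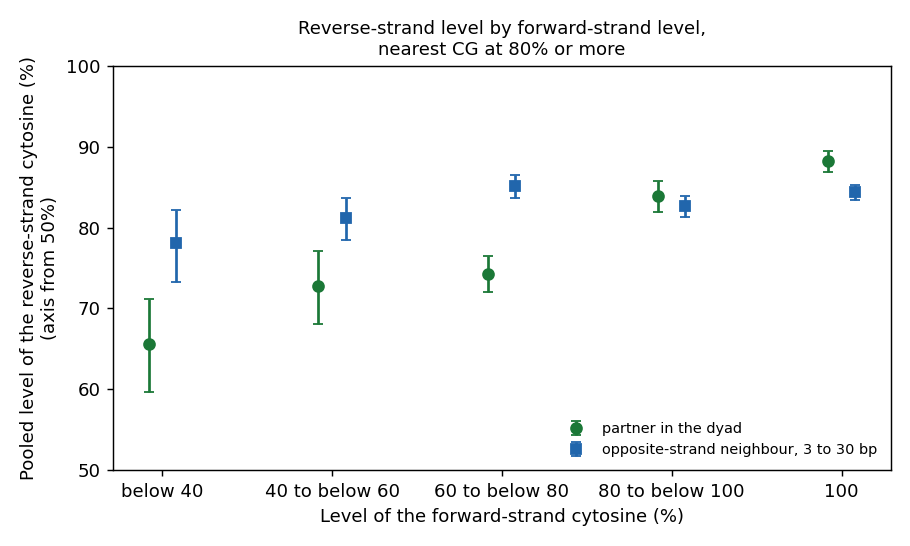
Pooled level of the reverse-strand cytosine (y axis, %, from 50%) by the level of the forward-strand cytosine (x axis, classes in %), for dyad partners (green circles) and for other opposite-strand cytosines 3 to 30 bp away (blue squares), where the nearest CG is at 80% or more. Bars are Wilson 95% intervals on reads, which for neighbours can count the same read more than once. Partners rise through all classes from 65.6% to 88.2%, while neighbours lie between 78.0% and 85.2% and peak in the class from 60% to below 80%.

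Partners of intermediate cytosines were about as often intermediate as highly methylated. Where the CG was at 80% or more, 217 forward dyad cytosines were intermediate, and their partner was intermediate in 103 (47.5%), at 80% or more in 106 and at 20% or less in 8. For 365 intermediate forward cytosines of neighbour pairs 3 to 30 bp apart, the reverse cytosine was intermediate in 86 (23.6%). Whatever the forward class, 32.5% of reverse cytosines were intermediate over the 674 dyads and 28.9% over the 1425 neighbour pairs. The share among partners of intermediate cytosines was thus 47.5% against 32.5%, and that among neighbours 23.6% against 28.9%, with no test made. Counting error at a minimum of 5 reads moves cytosines between these classes.

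No dyad passed the test for a difference between strands. By Fisher's exact test adjusted over all 2205 CG and CHG dyads, 0 (0%) passed an adjusted p of 0.05, and 0 of the 832 CAG and CTG dyads did. At an unadjusted p under 0.05 there were 35 CAG and CTG dyads (4.21%), against 66 (2.99%) of all dyads. Among the 1829 opposite-strand pairs 3 to 30 bp apart, 7 (0.383%) passed the adjusted threshold and 120 (6.56%) the unadjusted one, the adjustment being over those pairs. Pairs among the 7 shared the reverse cytosines at 4478255 and at 4573953. A cytosine can enter several such pairs but only a single dyad, so these counts are not directly comparable with those of dyads. To pass on its own, a dyad had to reach an exact p of 2.27e-05, for which only 246 of the 832 were deep enough even if fully opposite, so most differences between strands were not detectable at this depth.

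Of the 832 dyads, 7 paired a strand at 80% or above with one at 20% or below. The dyad at 4575614 had 0 of 7 reads methylated on the forward and 10 of 12 on the reverse strand (exact Fisher test, p = 0.000714, adjusted p = 0.956). The dyad at 4573975 had 1 of 8 and 11 of 13 (exact p = 0.00217, adjusted p = 0.956). The dyad at 4493315 had 4 of 5 and 2 of 14, and that at 4580831 had 10 of 11 and 1 of 5. The remaining 3, at 4372653, 4478045 and 4561180, had 1 methylated read of 5, 5 and 6 on the forward strand and 7 of 7, 7 of 8 and 6 of 6 on the reverse. CAG was the methylated member in 4 of the 7. None of these differences passed the adjustment.

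Of the 5 dyads with the smallest p, 2 were adjacent. Next to the dyad at 4573975, that at 4573978 had 0 of 8 reads methylated on the forward and 9 of 13 on the reverse strand (exact p = 0.0046, adjusted p = 1). The reverse cytosine at 4573953 was at 14 of 14, while its own forward partner at 4573951 had 4 of 6. Its pairs with the forward cytosines at 4573975 and 4573978 passed the test over neighbour pairs (exact adjusted p = 0.0422 and 0.00572). The low forward cytosines here were thus those at 4573975 and 4573978, which lie 3 bp apart and can share reads. The other dyads among the 5, beside that at 4575614, were at 4560535, with 3 of 9 against 11 of 11 (exact p = 0.00217), and at 4476478, with 5 of 13 against 9 of 9 (exact p = 0.00552), both higher on the reverse strand.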

How the data were processed

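Per the file headers, the deposited map holds raw methylated and total read counts for each cytosine and a methylation level, a fraction from 0 to 1. That fraction was the ratio of these counts throughout (0 exceptions beyond 1e-06). No listed cytosine had under 3 reads. CASAVA, BWA 0.6.1 and build B73 RefGen_v3 are named in the submitters' processing notes. Unknown are the methylation caller, duplicate removal, treatment of multiply mapped reads, conversion rate and the base from which positions count, all of them not given in the sources used here. Sequences from repeat copies, or base differences between plant and reference, can alter a level. No genome of that build was used, so no sequence or annotation is given.

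Levels were pooled reads. Opposite-strand pairs join a C row at p to a G row at p+2 (dyads) or another G row. The variance expected from counting, level × (1 − level) / (reads − 1), was subtracted for corrected values. Fisher tests were two-sided and adjusted by Benjamini-Hochberg. Alternatives were other coverage minimums, strands, limits, window sizes and choices of the CG. Named sites and windows follow fixed ranks: the 3 highest and 3 lowest windows with at least 50 cytosines, all dyads of opposite level, the 5 smallest dyad p, the 3 longest runs and the 3 deepest sites discordant with their CG each way. The members and these rules were chosen with earlier results of these data known. Tools were Python 3.11.15, pandas 2.3.3, numpy 2.4.6, matplotlib 3.10.9 and scipy 1.17.1, and the functions were tested on simulated data.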

Additional observations from a re-analysis of the deposited data

How the results depend on the processing

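No paired analysis was possible because 1 library was analysed. The matched comparison of partners and neighbours, and its alternatives, were added after the data were seen. With all listed cytosines (at least 3 reads) the pooled level was 74.6%, and it was 77.3% on the forward and 74.3% on the reverse strand alone. The intermediate share was 27.4% at a minimum of 20 reads (73 cytosines) and 19.1% with limits of 30% and 70%. Dyads within 20 points were 60.2% at 3 reads and 76.5% at 10, and 42.5% within 10 points. Neighbours within 20 points were 57.7% at 3 reads and 72.8% at 10, and 40.2% within 10 points. The dyad r was 0.575 at 3 reads, 0.844 at 10 and 0.362 beside a CG at 80% or more. The neighbour r was 0.511, 0.845 and 0.065 in the same order. At 10 reads over all cytosines (115 dyads, 283 pairs) dyads and neighbours thus had like r, whereas among matched cytosines beside a CG at 80% or more r was 0.358 with partners and 0.055 with neighbours (166 cytosines). With 3 reads the matched partner r was 0.309 against 0.052. Neighbour pairs that differed numbered 1 at 3 reads and 2 at 10, against 7. Cytosines below their CG numbered 20 at 3 reads, against 43, and those above numbered 3, against 5. With the CG on the opposite strand, levels were 13.4%, 75.9% and 80.8% beside low, intermediate and high CGs, and at 10 reads that beside intermediate CGs was 65.5%. The cause of these shifts was not tested. The 0 dyads called stayed 0 at 3 and 10 reads and when adjusted over the 832 alone. Shallow coverage limits every single-site value.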
